A study of Mus musculus with 5 samples.

Results

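The cells described here are the synovial lining fibroblasts found in single-cell suspensions of the mouse temporomandibular joint (TMJ) disc, a pad of fibrocartilage on which the jaw joint slides. They were picked by detection of genes and not by clustering. A cell was a member if it had at least 1000 unique molecular identifiers (UMIs, each standing for 1 captured transcript), at most 30% of them from mitochondrial genes, at least 1 UMI in 3 or more of the 6 genes Clic5, Tspan15, Col22a1, Slurp1, Calb2 and Krtdap, and no UMI of the endothelial gene Cdh5 or the myeloid gene Tyrobp. This gave 977 lining cells among 49188 retained cells and 51948 barcodes in 5 libraries. Lining fibroblasts form the cell layer that faces the joint cavity, together with resident macrophages. They secrete lubricin, the product of Prg4, and long hyaluronan chains, both of which lubricate the sliding surfaces, and in textbooks they are told from the looser sublining fibroblasts by lubricin, CD55 and low THY1. The disc is covered by synovium only where it joins its attachments, and how much of that tissue entered the digests was not measured.

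The series held 1 library for each of 5 conditions, all labelled wild type on the C57BL/6 strain. Untreated discs came from pups aged 3 d, of both sexes in 1 suspension, and from males at each of 3 w, 16 w and also 78 w. The name of the deposited matrix for 78 w gives another age than its label, and the label is used. The injured discs came from mice aged 7 weeks whose anterior disc band had been injured with a 31 Gauge needle at 5 weeks, 2 weeks before collection. The labels speak of pinching and the paper's methods of puncture. The labels call these mice wild type, while the paper's account of the injury model names a tamoxifen-driven Myh11-Cre reporter line, in which the methods state that males alone were used for lineage tracing. No source used here gives the sex of the mice in this library itself. Xist, transcribed from the inactive X of females, was at 522 counts per 1000000 UMIs (CPM) in the lining cells of the injured library and at 0 CPM at 3 w, 0.461 CPM at 16 w and 0 CPM at 78 w. Ddx3y, on the Y chromosome, was at 0 CPM there, against 117, 137 and 72.8 CPM, and the 3 d pool held both, at 731 and 40.5 CPM. In the other stromal cells of the injured library Ddx3y was at 0 and Xist at 666 CPM. These levels go against a male library of that reporter line. Injury, sex, age and library therefore cannot be told apart in any comparison with the injured library. The 3 d pool held both sexes and the later normal libraries males, so age, sex and library cannot be told apart in comparisons with 3 d.

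The libraries held 125130270 UMIs at 3 d, 125427849 at 3 w, 88998394 at 16 w, 105309834 at 78 w and 31585993 in the injured library. Lining cells contributed 4565967, 1174732, 2169818, 4836696 and 502017 of these. Their median depth was 9737.5 UMIs per cell at 3 d, 18156.5 at 3 w, 14118 at 16 w, 16750 at 78 w and 5378.5 in the injured library, above the 8086, 13107, 9462, 9712 and 3617.5 UMIs of the other stromal cells. Levels below are CPM, taken after the UMIs of all cells in 1 class and 1 library had been added up, and no level is compared between genes. With 1 library per condition no test of a difference between conditions was possible, and all intervals are 95% intervals that cover counting error only. A gene is called past 2-fold where the ratio of its CPM values, with 10 CPM added to each, was at least 2 or at most 0.5. In all, 275 barcodes occurred in more than 1 library, and no lining cell shared its barcode with a lining cell of another library.

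Lining cells made up 3.00% of the retained cells at 3 d (408 of 13620, exact Clopper-Pearson interval 2.72% to 3.30%). At 3 w the share was 0.688% (64 of 9300, 0.530% to 0.878%). It was 1.58% at 16 w (137 of 8694, 1.32% to 1.86%) and 2.81% among the 78 w cells (280 of 9964, 2.49% to 3.15%). In the injured library it was 1.16% (88 of 7610, 0.928% to 1.42%). The rule needs detected UMIs, so the share depends on depth, and each cell was also thinned at random to 3000 UMIs before the rule was applied. The shares were then 1.52%, 0.332%, 0.629%, 1.69% and 1.07%, with 2776, 361, 356, 520 and 3696 shallower cells left out. The 3 d and 78 w libraries had the highest share and the 3 w library the lowest on both scales, while the order of the 16 w and injured libraries turned round. So did that of 3 d and 78 w, whose intervals overlap both unthinned and at 3000 UMIs. At 1000 UMIs they were 0.360% and 0.733%, with intervals that do not overlap. Without cells holding a UMI of 7 further lineage genes, Rgs5 among them, the share was 1.80%, 0.333%, 1.01%, 1.07% and 0.460%, so that the 16 w and 78 w libraries were nearly level.

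**Figure D1:**
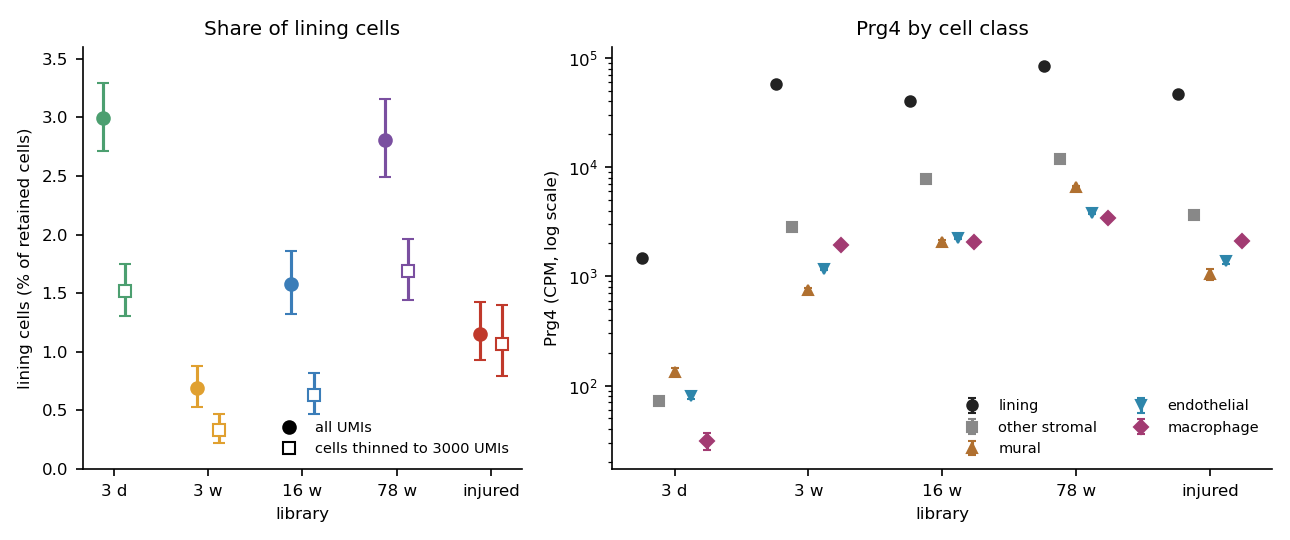
Left, percent of retained cells that met the lining rule in each library, with all UMIs (filled) and after each cell was thinned to 3000 UMIs (open), with Clopper-Pearson bars. Right, Prg4 level in CPM on a log axis for lining cells and 4 other cell classes of the same library, with Poisson bars; lining cells are the highest class in each library, and all classes are lowest at 3 d.

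The label was set beside 8 lining markers that the rule did not use. The list was chosen with earlier results of these data known, so it describes the class and does not test the label. Of these, 6 were past 2-fold higher in lining cells than in the other stromal cells in each of the 5 libraries: Prg4, Cd55, Htra4, Hbegf, Has1 and Creb5. Thy1, the sublining marker, was at 10.5, 1.70, 11.98, 11.2 and 7.97 CPM in lining cells and at 8.91, 18.5, 18.9, 22.4 and 19.1 CPM in other stromal cells. It was thus low in both and not lower in lining cells at 3 d. The other 2 of the 8, the Wnt agonist Rspo2 and the laminin receptor chain Itga6, were past 2-fold in the 4 other libraries but not at 3 d, where Rspo2 was at 31.3 CPM in lining and 31.4 CPM in other stromal cells and Itga6 at 85.2 against 55.5 CPM. Markers of most lineages other than fibroblasts and cartilage cells were low. The exceptions were the mural list, given with Rgs5, and the erythroid list at 3 d. The list of sublining and other fibroblasts, at 2508 CPM at 3 d, and the chondrocyte-like list, at 1856 CPM at 16 w, were not low. Both are given below. The 8 macrophage markers summed to 18.2, 4.26, 11.98, 14.5 and 89.6 CPM in lining cells from 3 d to the injured library, led by Lyz2, against 8679 to 27838 CPM in macrophages. The 6 endothelial markers summed to between 0 and 22.6 CPM, against 1697 to 2914 CPM in endothelial cells. Krt5 and Krt14, which define basal keratinocytes, were at 0 in each library, and the 4 mesothelial markers summed to at most 0.851 CPM, although several rule genes (Krtdap, Slurp1, Calb2) are best known from epidermis and mesothelium. The keratinocyte list summed to between 20.4 and 39.8 CPM, mostly Krt10. The Schwann and muscle lists summed to at most 5.04 and 12.5 CPM. The 3 erythroid markers summed to 2112 CPM at 3 d, mostly Hbb-bs at 1454 CPM, and to 57.8 CPM or less elsewhere. Their part in the 3 d values was not tested.

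Some cells sat close to the threshold. Those with exactly 3 of the 6 genes numbered 234 of 408 at 3 d and 25 of 64 at 3 w. The 16 w library had 71 of 137, the 78 w library 109 of 280 and the injured library 43 of 88, so that the class is a range and not a sharp type. At 78 w the Prg4 level was 18159 CPM in cells with 2 rule genes, just outside, 64260 CPM with 3, 91392 CPM with 4 and 96361 CPM with 5 or 6. At 3 w the same steps were 5145, 22970, 85695 and 75912 CPM, and in the injured library 16278, 34068, 48917 and 72267 CPM. At 16 w cells with 3 rule genes, at 14872 CPM, lay near those with 2, at 12466 CPM, and only those with 4 (39745 CPM) and with 5 or 6 (80885 CPM) stood well above. At 3 d all steps were low, at 783, 1228, 1701 and 2075 CPM. Cd55 and Hbegf were also higher just inside the threshold than just outside it in each library. At 78 w Cd55 went from 208 CPM in cells with 2 rule genes to 585, 794 and 1176 CPM, and Hbegf from 632 to 2514, 3289 and 4170 CPM.

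The 6 rule genes are protein-coding genes that chose the members, so their levels are given as a description (coordinates in GRCm38 from GENCODE M21). Clic5, a chloride intracellular channel protein that binds the cortical cytoskeleton (chr17:44188584-44280172, plus strand), was at 67.9 CPM at 3 d, 650 at 3 w, 931 at 16 w, 1450 at 78 w and 675 CPM in the injured library. Krtdap, a small secreted protein named from keratinocyte differentiation (chr7:30787896-30791097, plus strand), went the other way, from 986 CPM at 3 d to 327, 306, 394 and 133 CPM. Cells of the 3 d library were thus admitted mostly through Krtdap, Tspan15 and Col22a1, and later cells mostly through Clic5, Tspan15 and Col22a1. Tspan15, a tetraspanin that guides the sheddase ADAM10 (chr10:62185396-62231251, minus strand), was the steadiest, at 318, 384, 325, 413 and 275 CPM. Col22a1, a collagen of tissue junctions (chr15:71795795-72034227, minus strand), was at 274, 271, 197, 313 and 468 CPM. Slurp1, a secreted Ly6-family protein (chr15:74724318-74728034, minus strand), was at 112, 936, 686, 412 and 749 CPM, and the calcium buffer calretinin, Calb2 (chr8:110137502-110168210, minus strand), at 152, 569, 147, 368 and 311 CPM.

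Lubricin varied widely between libraries. Prg4 (chr1:150449412-150466165, minus strand) was at 1487 CPM in lining cells at 3 d, 57823 at 3 w, 40004 at 16 w, 83796 at 78 w and 46616 CPM in the injured library. The other stromal cells held 71.6, 2825, 7733, 11819.5 and 3641 CPM, so the lining was 20.8-fold (interval 20.1 to 21.5), 20.5-fold, 5.17-fold, 7.09-fold and 12.8-fold higher in the 5 libraries. Macrophages, which are not known to make lubricin, held 31.0, 1916, 2072, 3422 and 2092 CPM, and endothelial cells 80.5, 1171, 2264, 3783 and 1375 CPM. Prg4 UMIs at those levels are therefore present in cells of other classes, and the lining level was above all of them in each library. The Prg4 level differed widely between single lining cells. The median per cell was 378 CPM at 3 d, 44099 at 3 w, 9715 at 16 w, 68177 at 78 w and 33784 CPM in the injured library, and the middle quartiles ran from 4927 to 25919 CPM at 16 w and from 20674 to 118713 CPM at 78 w. At 3 d they ran from 0 to 1893 CPM, and 127 of the 408 lining cells there had no Prg4 UMI. Each lining cell of the other libraries had at least 1. At 16 w 26.7% of the other stromal cells lay above the lining median, against 3.92% at 3 d, 0.0642% at 3 w, 0.273% at 78 w and 0.775% in the injured library.

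**Figure D2:**
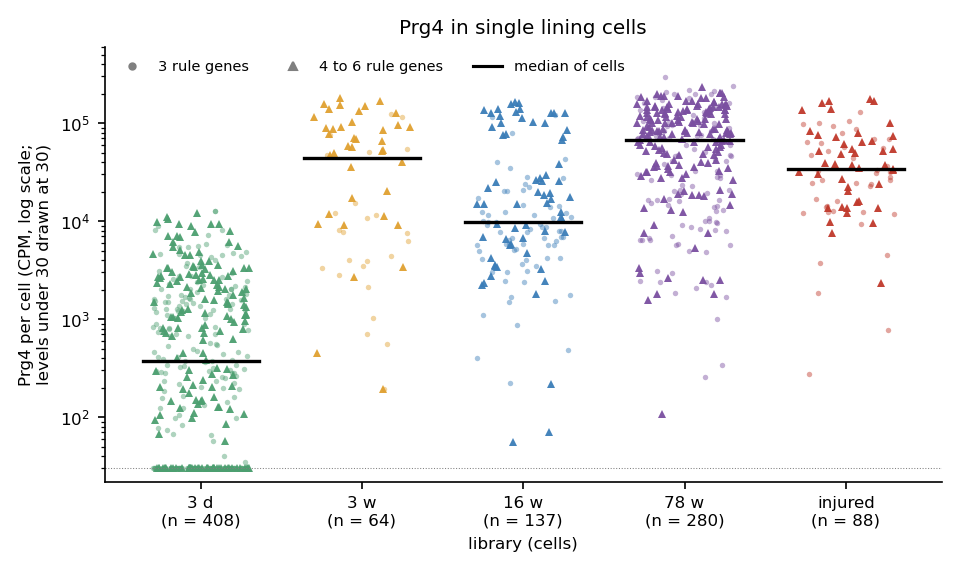
Prg4 level of each lining cell in CPM on a log axis, by library; circles are cells with 3 of the 6 rule genes, triangles cells with 4 to 6, the line is the median, and levels under 30 CPM are drawn at 30. The 3 d cells lie lowest, the 16 w cells have the lowest median of the later libraries, and both symbols reach the top of the 78 w library.

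Within a library, cells richer in Prg4 also differed in other genes. The values are Pearson correlations of log2(CPM + 100) over lining cells of 1 library, which share their library and the selection rule, and are given as a description. Fibronectin (Fn1) had r of 0.16 at 3 d, 0.66 at 3 w, 0.38 at 16 w, 0.52 at 78 w and 0.50 in the injured library. Col22a1 followed with 0.17, 0.53, 0.26, 0.52 and 0.37. The rule gene Slurp1 went against Prg4, with -0.15, -0.55, -0.47, -0.63 and -0.40. Cd34, a glycoprotein of sublining and adventitial fibroblasts, had 0.07, -0.40, -0.41, -0.43 and -0.12, with no negative value at 3 d. Cd55 and Creb5 did not follow Prg4 in a steady direction, with Cd55 at 0.04, -0.09, -0.25, -0.07 and 0.13 and Creb5 at 0.05, 0.22, -0.19, 0.01 and -0.11. Depth moved with Prg4 too, with r of 0.17, 0.32, 0.39, 0.29 and -0.12 for the UMIs per cell, and its part was not tested.

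Lining cells were then set against the other stromal cells of the same library, 40017 cells with none or 1 of the rule genes. These had UMIs in 2 or more of Col1a2, Col3a1, Dcn, Lum and Bgn, and no UMI of Cdh5 or Tyrobp. Cells that met the marker rule of the endothelial, macrophage or mural class were left out of them. The stromal filter and these marker rules were not applied to lining cells. Of 10611 genes with enough UMIs, 114 (1.07%) were past 2-fold higher in lining cells in each of the 5 libraries, and 44 (0.415%) were past 2-fold lower in each. The members were chosen in these same cells, so the ratios describe the class and test nothing. Among the 20 highest genes, all 6 rule genes appeared, and 14 did not belong to the rule.

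**Figure D3:**
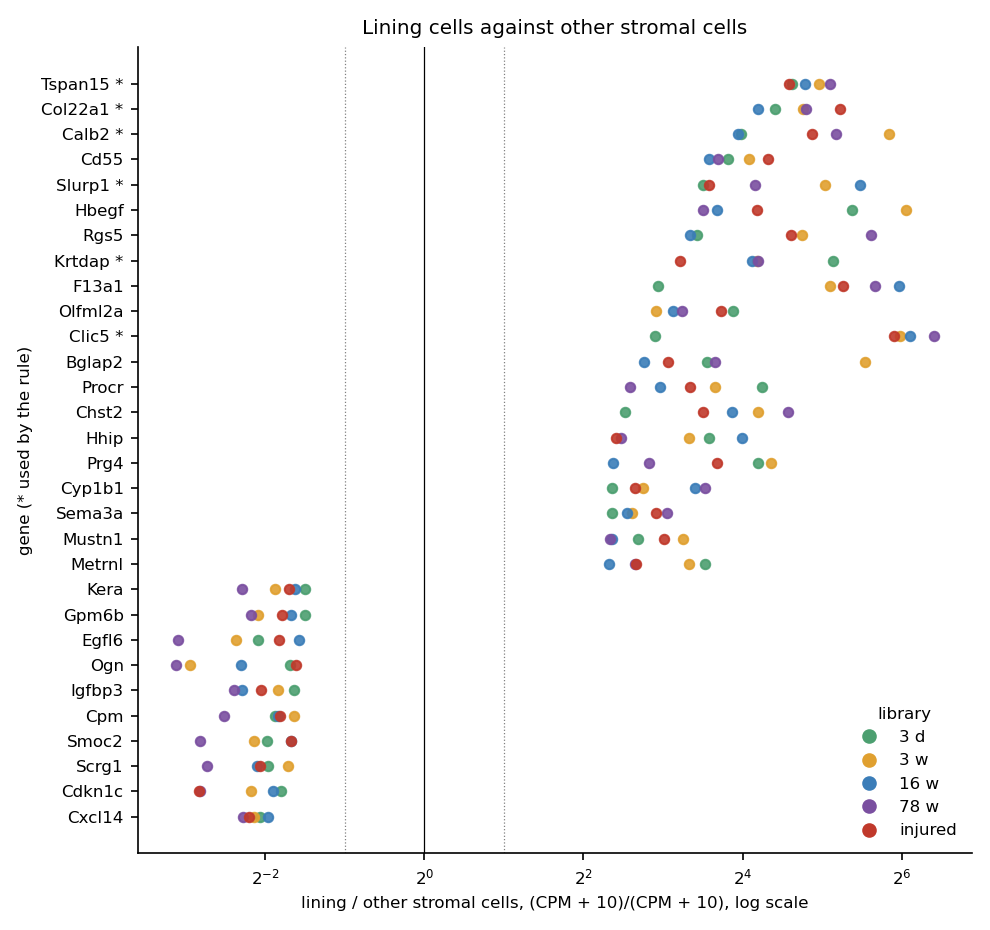
Ratio of lining to other stromal cells, (CPM + 10)/(CPM + 10) on a log axis, for the 20 highest and 10 lowest genes, with 1 point per library; an asterisk marks a rule gene. Each of the 30 genes lies on its side of 2-fold in all 5 libraries.

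Cd55, the complement decay-accelerating factor, was at 1020, 964, 709, 857 and 773 CPM in lining cells from 3 d to the injured library, against 63.1, 47.5, 50.4, 57.2 and 29.4 CPM in other stromal cells. Hbegf, a membrane-anchored ligand of the EGF receptor that is shed from the cell, was at 1794, 3726, 3139, 3332 and 2613 CPM against 33.7, 46.1, 237, 286 and 135 CPM. Both stood far apart from other stroma in each library and varied less between libraries than Prg4. Procr, the endothelial protein C receptor, was at 437, 808, 250, 330 and 769 CPM against 13.7, 55.2, 23.4, 46.9 and 66.8 CPM. Axl, a receptor kinase that binds dying cells through GAS6, was at 322, 277, 244, 367 and 309 CPM against 63.3, 42.1, 50.9, 57.3 and 47.1 CPM. Hhip, a decoy receptor for hedgehog ligands, was at 305, 115, 288, 116 and 95.6 CPM, between 5.32-fold and 15.9-fold higher with 10 CPM added. The guidance ligand Sema3a was nearly level across libraries, at 102, 105, 92.2, 104 and 106 CPM, against 11.9 CPM or less in other stromal cells.

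A pair of genes best known from other lineages belonged to the same set. Rgs5, a regulator of G-protein signalling used as a pericyte marker, was at 198, 307, 131, 637 and 436 CPM in lining cells against 9.38, 1.79, 3.98, 3.21 and 8.28 CPM in other stromal cells. Cells with UMIs in 2 or more of Rgs5, Notch3, Myh11 and Des had been left out of the other stromal cells but not of the lining cells. The contrasts for Rgs5 and the mural list can therefore in part follow from that choice, which was not tested. The 6 mural markers together summed to 265, 345, 168, 725 and 442 CPM in lining cells, of which Rgs5 gave 198, 307, 131, 637 and 436 CPM, against 85.7, 27.1, 31.7, 25.6 and 27.3 CPM in other stromal cells and 5353 to 13007 CPM in mural cells. Myh11, the smooth muscle myosin that defines mural cells, was at 0 in lining cells at 3 w, 16 w and in the injured library. F13a1, the A chain of coagulation factor XIII and a macrophage gene in many tissues, was at 89.6, 367, 679, 845 and 633 CPM against 6.85 CPM or less in other stromal cells. The macrophage markers C1qa, C1qb and Csf1r were at 0 at 3 w, where F13a1 was at 367 CPM. The 21 gene lists gave few further genes past 2-fold in each library. The lysosome and phagocytosis list had 1 of 12 tested higher (Axl), the complement list 1 of 6 (Lbp, the lipopolysaccharide-binding protein), the EGF and FGF family 1 of 9 (Hbegf), and the adhesion list 2 of 12 (Cd55 and the rule gene Tspan15), with Icam1 lower. The epithelial-type list had 3 of 6 higher, Slurp1, Krtdap and Calb2, which are rule genes. The Wnt (12 tested), TGF-beta and BMP (13), Notch (5), chemokine (12), interferon (8), immediate early (11) and cell cycle (4) lists had none in either direction. Over all tested genes 1.07% were higher and 0.415% lower in each library. A count of none or 1 in lists this short is therefore not read as a result about those genes.

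Matrix genes separated lining cells from the rest of the stroma in both directions. Fn1 was at 1589, 9889, 12379, 18797 and 16424 CPM in lining cells against 761, 1619, 1640, 3777 and 2981 CPM. The laminin chain Lama4 was between 2.09-fold and 2.61-fold higher with 10 CPM added. These were the only 2 of 19 matrix glycoprotein and basement membrane genes past 2-fold higher in each library, with Egfl6 lower and a median ratio of 0.814, against 1.04 over all tested genes. Of 14 collagens, the rule gene Col22a1 was higher, and Col1a2 and Col14a1, which build and space collagen I fibrils, were lower. None of 9 small leucine-rich proteoglycans, which coat collagen fibrils, was higher, and Lum, Ogn and Kera were lower, with a list median of 0.415. Lum was at 450, 123, 109, 131 and 295 CPM in lining cells and at 1350.5, 565, 343, 1113 and 742 CPM in other stromal cells. Col1a2, Col3a1, Dcn, Lum and Bgn also helped to choose the other stromal cells. The lower Col1a2, Lum and proteoglycan list values can therefore in part follow from that choice, which was not tested. Of 11 chondrocyte-type genes none was higher, and Chad, Comp and Col11a1 were lower, with a list median of 0.449. The matrix protease list had 1 of 17 higher, the serine protease Htra4, at 15.5, 343, 162, 142 and 75.7 CPM against 0.0987, 40.7, 27.0, 28.7 and 7.38 CPM.

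Other genes lower in lining cells were the chemokine Cxcl14, the cell cycle inhibitor Cdkn1c and the matricellular gene Smoc2. Cxcl14 was at 46.2, 78.3, 74.2, 31.6 and 63.7 CPM against 225, 378, 319, 191 and 330 CPM. Cdkn1c was at 361, 43.4, 81.1, 31.2 and 29.9 CPM against 1279, 231, 329, 280 and 274 CPM. The fetal growth factor list had none of 13 higher and 3 lower (Igf1, Igfbp3 and Mdk). In the list of 13 sublining and adventitial genes, Ly6a and Ly6c1 were higher in each library and Cxcl14 lower. The markers of sublining and other fibroblasts summed to 2508, 598, 503, 744 and 872 CPM in lining cells, close to the 2836, 564, 548, 764 and 808 CPM of other stromal cells. The chondrocyte-like markers summed to 110, 1318, 1856, 497 and 753 CPM in lining cells, below the 314, 3145, 4512, 3294.5 and 3231 CPM of other stromal cells. The tenocyte-like markers summed to 50.4, 49.4, 161, 41.8 and 89.6 CPM in lining cells, against 208 to 367 CPM in other stromal cells.

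Hyaluronan is built at the cell surface by hyaluronan synthases from 2 nucleotide sugars, UDP-glucuronic acid and UDP-N-acetylglucosamine. The lubricin and hyaluronan list had 3 of 12 genes past 2-fold higher in each library, Prg4, Has1 and Ugdh. After these values were seen, 11 genes of nucleotide sugar supply and hyaluronan synthesis were gathered, so their count is a description. Of the 10 with enough UMIs, 6 were past 2-fold higher in lining cells in each of the 5 libraries, and none was lower in each. On the glucuronic acid side, Ugp2, which makes UDP-glucose, was at 410, 516, 571, 779 and 612 CPM against 130, 170, 120, 179 and 118 CPM in other stromal cells. Ugdh, which oxidises UDP-glucose to UDP-glucuronic acid, was at 371, 976, 531, 685 and 731 CPM against 70.9, 111, 144, 210 and 157 CPM. On the glucosamine side, Gfpt2, which commits fructose-6-phosphate to hexosamine synthesis, was at 134, 568, 410, 503 and 440 CPM against 18.4, 143, 184, 179 and 106 CPM. Gnpnat1, the acetylase of the next step, was at 195, 372, 184, 296 and 265 CPM against 35.0, 41.3, 25.7, 41.1 and 26.7 CPM. Uap1, which charges the sugar with UDP, was at 219, 1106, 610, 850 and 504 CPM against 56.2, 426, 269, 359 and 140 CPM.

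Isoforms of the same step differed. Has1 was at 33.3 CPM at 3 d, 1296 at 3 w, 405 at 16 w, 596 at 78 w and 386 CPM in the injured library, against 5.83, 145, 89.9, 195 and 43.1 CPM in other stromal cells. Has2, the other synthase with enough UMIs, was at 23, 11.1, 11.98, 9.72 and 7.97 CPM, with ratios between 0.565 and 1.11. Gfpt1, the second enzyme for the Gfpt2 step, had ratios between 0.684 and 1.16, Pgm3 between 0.799 and 1.67, and Uap1l1 between 1.30 and 1.57.

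**Figure D4:**
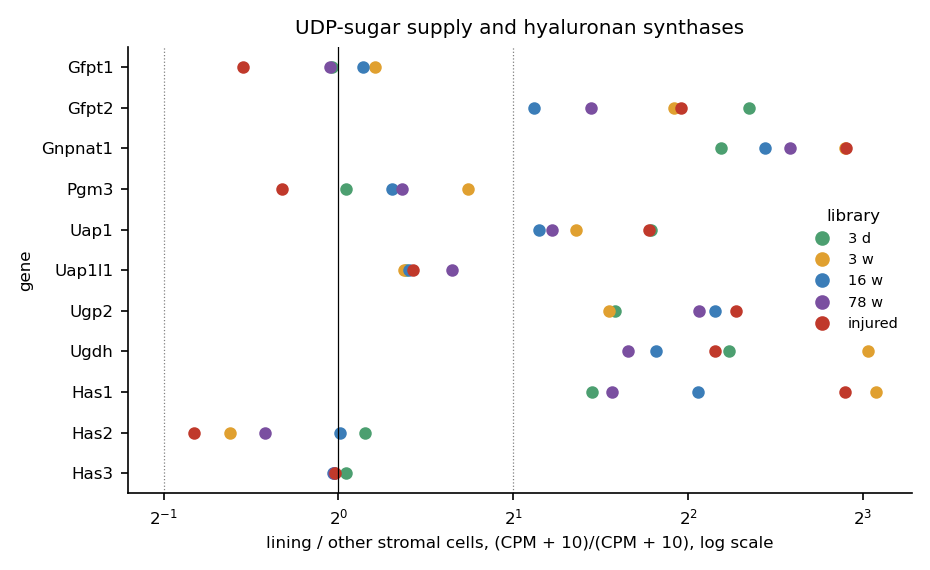
Ratio of lining to other stromal cells, (CPM + 10)/(CPM + 10) on a log axis, for 11 genes of UDP-sugar supply and hyaluronan synthesis, with 1 point per library. Gfpt2, Gnpnat1, Uap1, Ugp2, Ugdh and Has1 lie above 2-fold in all 5 libraries, and Gfpt1, Pgm3, Uap1l1 and Has2 do not.

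Of 15 transcription factors of joint and lining, 2 were past 2-fold higher in each library. Creb5, a factor of the CREB and ATF family known for lubricin control in articular cartilage, was at 784, 765, 818, 720 and 349 CPM in lining cells against 184, 228, 184, 235 and 118 CPM. Foxo1 was at 158, 147, 308, 307 and 151 CPM against 35.4, 57.1, 131, 104 and 57.6 CPM. Creb5 was thus already at its later level at 3 d, when Prg4 in the same cells was at 1487 CPM, and it was lowest in the injured library.

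CREB and ATF family factors bind the cyclic AMP response element TGACGTCA, and their dimers with FOS and JUN proteins also bind the AP-1 element TGANTCA. Both were searched on both strands in the 250 bases before each gene start in RefSeq promoters of GRCm38.p6, and neither word contains the other. TGACGTCA was in 1.55% and TGANTCA in 6.75% of all 32851 promoters. The promoters of Creb5, of the hyaluronan synthase Has1 and of the rule gene Tspan15 are shown because these lining genes hold a match, which is in capitals. They lie at chr6:53287053-53287302 (plus strand), chr17:17855189-17855438 (minus strand) and chr10:62231219-62231468 (minus strand).
Creb5: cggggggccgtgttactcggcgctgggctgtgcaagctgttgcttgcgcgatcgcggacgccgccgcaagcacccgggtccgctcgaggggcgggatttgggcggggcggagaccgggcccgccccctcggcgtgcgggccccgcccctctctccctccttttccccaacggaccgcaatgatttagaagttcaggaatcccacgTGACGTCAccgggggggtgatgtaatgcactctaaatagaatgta
Has1: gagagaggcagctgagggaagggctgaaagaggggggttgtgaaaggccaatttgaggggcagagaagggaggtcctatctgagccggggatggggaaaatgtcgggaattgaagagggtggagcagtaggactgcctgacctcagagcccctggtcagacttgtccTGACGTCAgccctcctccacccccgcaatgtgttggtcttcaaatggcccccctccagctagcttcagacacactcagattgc
Tspan15: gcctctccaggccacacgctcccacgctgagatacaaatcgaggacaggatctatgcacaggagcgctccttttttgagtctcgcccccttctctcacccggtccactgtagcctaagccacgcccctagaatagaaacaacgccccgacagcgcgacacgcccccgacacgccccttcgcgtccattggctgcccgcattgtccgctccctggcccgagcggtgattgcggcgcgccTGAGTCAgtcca
The Creb5 match starts 45 bases and the Has1 match 83 bases before the gene start, and both read TGACGTCA. The Tspan15 match, of the TGANTCA form, starts 12 bases before it. Of the 114 genes higher in lining, 81 were in the promoter table, and 3 of these 81 held TGACGTCA (Creb5, Has1 and Hhip) and 10 held TGANTCA (AA467197, Creb5, Ecm1, Gfpt2, Krtdap, Procr, Prss23, Tspan15, Zeb2 and Zfhx2). The TGANTCA match of Creb5 lies in the promoter of its other start, at chr6:53573124-53573373, which is not shown. Over all genes of the table the shares were 1.77% and 7.82%. Since the table lacks the other genes, no difference is read from these shares. Clic5, Cd55 and F13a1 held neither word in this window. A match is a run of letters and no evidence of binding.

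The age series was read in steps between neighbouring stages and from end to end, and the comparisons share libraries. Between 3 d and 3 w, 509 of 8295 genes (6.14%) were past 2-fold higher and 537 (6.47%) past 2-fold lower in lining cells at 3 w. Between 3 w and 16 w, 192 of 6632 genes (2.9%) were higher and 118 (1.78%) lower at 16 w. Between 16 w and 78 w, 73 of 8574 (0.851%) were higher and 136 (1.59%) lower at 78 w. This balance depended on the choice of cells, with 140 higher and 118 lower without cells holding a UMI of 7 further lineage genes, and 58 higher and 33 lower with at least 2 rule genes. From 3 d to 78 w, 474 of 9538 (4.97%) were higher and 513 (5.38%) lower. The first 3 weeks thus held the larger counts, though the numbers of UMIs behind the steps differ.

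Fgl2, a fibrinogen-like protein, was at 3.29 CPM in lining cells at 3 d and at 1230, 723, 1025 and 185 CPM later, which is 312-fold higher at 78 w than at 3 d (interval 189 to 558). Its level in other stromal cells was 16.6, 251, 113, 123 and 40.8 CPM. Cp, the copper oxidase ceruloplasmin, was at 1.10, 244, 401, 410 and 110 CPM. Gpx3, the secreted glutathione peroxidase, was at 16.2, 450, 568, 2595 and 199 CPM, and at 35.7, 235, 325, 999 and 293 CPM in other stromal cells, so that the 78 w level was the highest in both classes. Ccdc3, Pcolce2, Pltp and Cpe were also among the 10 largest rises from 3 d to 78 w, with Ccdc3 at 11.6 and 468 CPM and Pltp at 3.07 and 252 CPM. Pla1a, a phosphatidylserine lipase, had no UMI at 3 d and was at 160 CPM at 78 w, at least 244-fold higher against 3 counts, and had none in the injured library, where 3 counts would be 5.98 CPM.

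Of 10 complement and innate defence genes, 8 were tested and all 8 were past 2-fold higher at 78 w than at 3 d, with a list median of 3.73 against 0.954 over all tested genes. The C1 inhibitor Serping1 was at 67.2, 598, 631, 1251 and 382 CPM, and C4b at 5.04, 27.2, 96.8, 172 and 29.9 CPM. C4b was higher in macrophages in each library, at 265 CPM at 78 w. Of the 3 genes tested between 3 d and 3 w all were already past 2-fold higher at 3 w. From 3 w to 16 w 1 of 6 was higher (C4b) and 2 lower (C1ra and Lbp), and none of 8 was past 2-fold between 16 w and 78 w. C3 reached 18.4 CPM at 78 w, below the 210 CPM of the other stromal cells there. Free transcripts at that level cannot be told from expression in these cells. Immediate early genes were past 2-fold higher for 6 of 11 (list median 2.40), among them Fos at 450, 1906, 2104, 2178 and 1253 CPM and Atf3 at 170, 1941, 1621, 1275 and 821 CPM. The other stromal cells had Fos at 1307, 2257, 3823, 1927 and 1506 CPM.

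Genes of fetal growth fell from 3 d. In the fetal growth factor list 10 of 14 genes were past 2-fold lower at 78 w and 2 higher, with a list median of 0.0925. Igf2, the fetal insulin-like growth factor, was at 2436 CPM at 3 d and at 28.1, 26.7, 3.31 and 1.99 CPM later. The imprinted H19 transcript was at 1090 CPM at 3 d and had no UMI in any later lining library, which is at least 1757-fold lower at 78 w against 3 counts. Other stromal cells held H19 at 1080 CPM at 3 d and at 3.94 CPM or less later. Ptn, the growth factor pleiotrophin, was at 3680, 182, 188, 39.3 and 325 CPM in lining cells. Dlk1 was at 554, 50.2, 95.9, 4.14 and 5.98 CPM, and the Wnt modulator Sfrp2 at 1031, 0.851, 0.922, 1.45 and 13.9 CPM. At 3 d mural cells held Sfrp2 at 1128 CPM and macrophages at 495 CPM, and at the same age mural cells held H19 at 1084 CPM and Dlk1 at 1594 CPM, so expression and background cannot be told apart in the 3 d levels of these 3 genes. For Ptn macrophages held 1823 CPM at 3 d, below the lining level. Igf2 at 3 d was higher in lining cells than in each other class, with 1613 CPM in other stromal, 1399 in mural and 475 CPM in macrophage cells. The 2 members past 2-fold higher were binding proteins, Igfbp5 at 1846 and 4217 CPM and Igfbp6 at 216 and 1305 CPM. Of 10 cell cycle genes 7 were past 2-fold lower at 78 w, with Top2a at 56.9 CPM at 3 d and at 3.98 CPM or less in each later library.

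**Figure D5:**
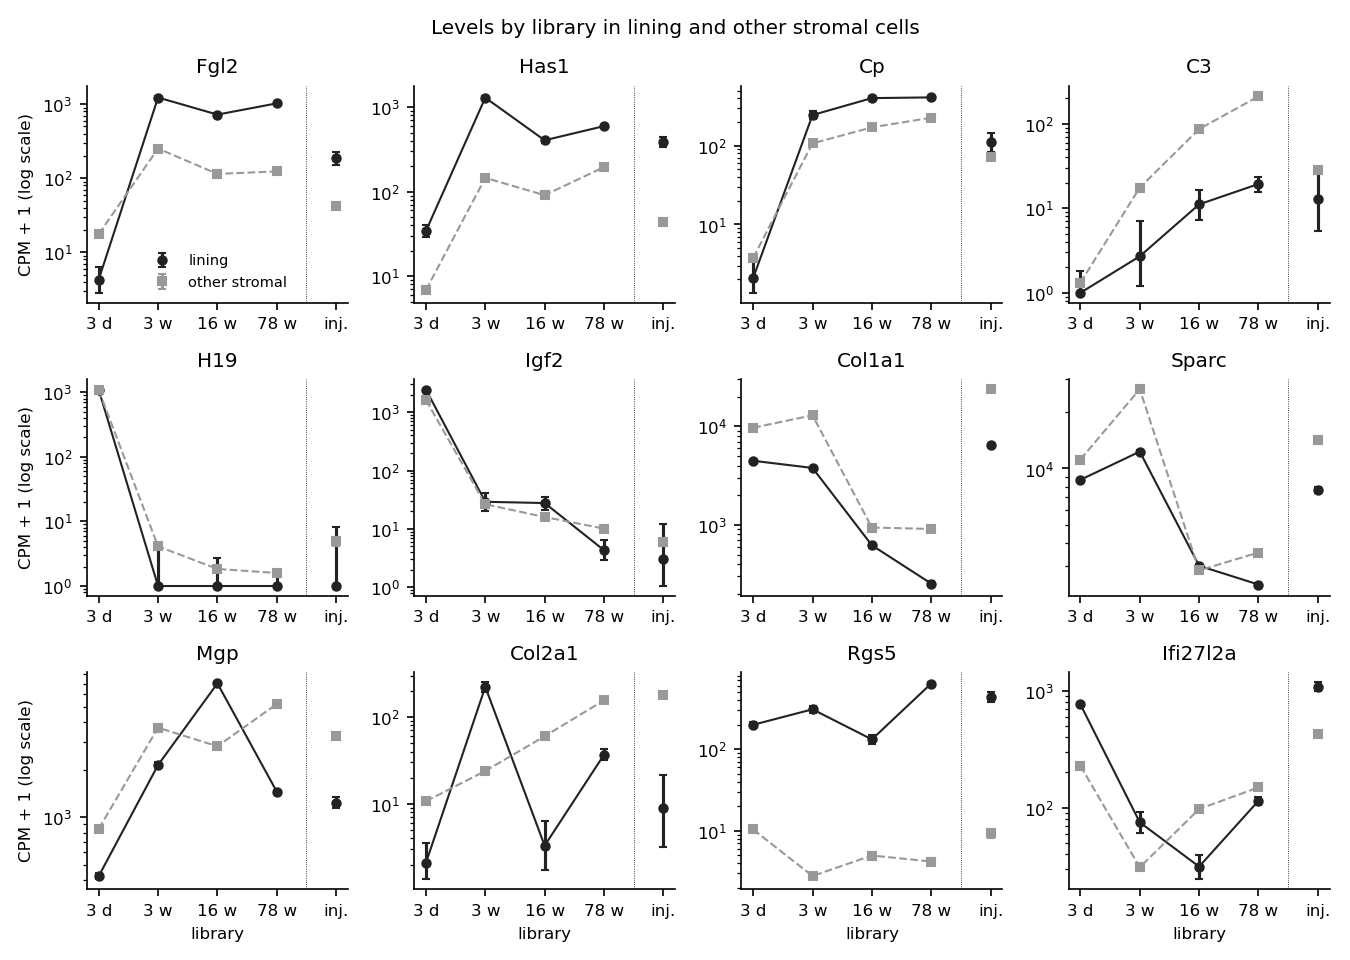
Levels of 12 genes, chosen after the values were seen, in lining cells and other stromal cells of each library, as CPM + 1 on a log axis with Poisson bars. Fgl2, Has1 and Cp lie low at 3 d and higher after it, H19 and Igf2 lie high at 3 d alone, and Col1a1 lies lowest at 78 w.

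Collagens were lower in older lining. Between 3 d and 78 w none of 14 was past 2-fold higher and 10 were lower, with a list median of 0.215. Col1a1 was at 4475 CPM at 3 d, 3784 at 3 w, 620 at 16 w, 253 at 78 w and 6396 CPM in the injured library. The other stromal cells were higher in each library, at 9675, 12961, 939.5, 908 and 23855 CPM. They rose from 3 d to 3 w, where the lining fell, and were nearly level from 16 w to 78 w. Macrophages held Col1a1 at 2814, 2441, 289 and 135 CPM from 3 d to 78 w, so part of the lining level and of its course with age cannot be told apart from background. Col3a1 was at 5725, 2777, 1169, 634 and 2803 CPM in lining cells, and at 2727, 1186, 84.5, 207 and 2702 CPM in macrophages. The level also depended on the distance from the threshold. At 3 w Col1a1 was at 7873 CPM in lining cells with 3 rule genes and at 1141 and 1261 CPM in those with 4 and with 5 or 6, while at 16 w the same steps were 647, 661 and 529 CPM. Sparc, a collagen-binding glycoprotein, was at 8698, 12308, 3017, 2395 and 7673 CPM, and 8 of 19 matrix glycoproteins were past 2-fold lower at 78 w than at 3 d, with Fn1 and Fbln7 higher.

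Several chondrocyte-type genes had their highest lining level at 16 w. From 3 d to 78 w 8 of 11 were past 2-fold higher and 1 lower (list median 2.95), from 3 w to 16 w 5 of 10 were higher and 2 lower, and from 16 w to 78 w 6 of 11 were lower and 1 higher. Col2a1 is 1 of the 2 lower genes from 3 w to 16 w and the 1 higher gene from 16 w to 78 w. Cytl1, a secreted cartilage cytokine, was at 10.7, 58.7, 1861, 862 and 195 CPM. Chad, a leucine-rich matrix protein of cartilage, was at 0.876, 391, 1085, 195 and 317 CPM, below the other stromal cells in each library, which held 11.9, 1572, 3462, 2119 and 1582 CPM. Its 3 w level came from cells at the threshold, with 1006 CPM in those with 3 rule genes, 7.11 with 4 and 2.27 CPM with 5 or 6. Macrophages held Chad at 302 CPM at 3 w, 1454 at 16 w, 200.2 at 78 w and 995 CPM in the injured library, so the lining level cannot be told from background there. Cytl1 in macrophages was at 896 CPM at 16 w and 491 CPM at 78 w. Mgp, the matrix calcification inhibitor, was at 423, 2138, 7019, 1450 and 1235 CPM, while the other stromal cells went from 2808 CPM at 16 w to 5199 CPM at 78 w. Much of the 16 w level of Mgp and Cytl1 came from cells near the threshold. At 16 w Mgp was at 11182 CPM in lining cells with 3 rule genes, 6327 with 4 and 1074 CPM with 5 or 6, and Cytl1 at 2882, 1666 and 431 CPM. The steps at 78 w were 3247, 629 and 401 CPM for Mgp and 1877, 597 and 97.4 CPM for Cytl1. Clu, a secreted chaperone, was at 31.1, 542, 4073, 1390 and 1121 CPM and at 25.6, 2675, 6376, 6990 and 4004 CPM in other stromal cells, with 1763 CPM in macrophages at 16 w and 2691 CPM in those of the injured library. In lining cells with 3, with 4 and with 5 or 6 rule genes Clu was at 1136, 132 and 193 CPM at 3 w. The same steps were 5171, 3302 and 3169 CPM at 16 w and 2811, 861 and 455 CPM at 78 w. In the injured library they were 1688, 930 and 245 CPM. Col2a1 at 3 w, at 221 CPM, rested on 1 cell of 64 that held all 260 UMIs, and is not read as a level of the class.

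Of the sublining and adventitial list, 6 of 12 genes were past 2-fold higher in lining cells at 78 w than at 16 w, with 1 lower and a list median of 1.98. Other stromal cells had ratios of 2.20 for Ly6a, 2.29 for Ly6c1, 2.11 for Clec3b and 2.26 for Pi16 in the same step, with 10 CPM added, beside 3.34, 3.12, 3.22 and 2.62 in lining cells. The separate list of sublining and other fibroblast markers had 2 of 7 higher and 1 lower in this step, with a median of 0.963 against 0.977 over all tested genes. Ly6a, the stem cell antigen Sca-1, was at 250, 490, 356, 1213 and 918 CPM and its neighbour Ly6c1 at 67.0, 260, 158, 513 and 486 CPM. At 78 w Ly6a was at 871 CPM in cells with 3 rule genes, 1397 CPM with 4 and 1389 CPM with 5 or 6. The others were Clec3b, Cxcl12, Mfap5 and Pi16. Clec3b was at 15.2 CPM at 16 w and 71.1 CPM at 78 w, and Pi16 at 6.91 and 34.3 CPM, below the 127 CPM of other stromal cells at 78 w. Both were highest at 3 d, at 453 and 319.5 CPM. Rgs5 led the step with 131 and 637 CPM, 4.87-fold higher (interval 4.31 to 5.52), and 15.3% of its UMIs at 78 w were in 1 of 280 cells. Of the mural list 2 of 3 tested genes were past 2-fold higher in this step, Rgs5 and the intermediate filament gene Des, at 23.5 and 66.2 CPM. Aldh1a2, which makes retinoic acid, was at 17.1 and 90.6 CPM. Thbs2 led the lower side with 303 and 53.8 CPM, and the matrix genes Cilp2, Angptl7 and Col15a1 were also among the 10 lowest.

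Among the other lists, the matrix proteases had 7 of 15 genes past 2-fold higher and 3 lower between 3 d and 78 w. Htra1 was at 754, 1568, 4377, 2574 and 1315 CPM, and the aggrecanase Adamts5 at 7.67, 260, 136, 230 and 85.7 CPM. On the lower side Mmp14, the membrane-bound collagenase, was at 380, 125, 81.6, 78.2 and 112 CPM. Small leucine-rich proteoglycans had 3 higher and 2 lower of 7, with Dcn at 1700, 9681, 15005, 8395 and 5499.8 CPM, and transcription factors 3 in each direction of 13, with Runx1 higher and Osr1 lower. The lysosome (10 tested) and Notch (4 tested) lists had none past 2-fold.

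The injured library was set against its neighbours in age, 3 w and 16 w. Against 3 w, 165 of 4232 genes (3.9%) were past 2-fold higher and 432 (10.2%) lower, and against 16 w 175 of 5764 (3.04%) were higher and 680 (11.8%) lower. The whole distribution was shifted, with a median log2 ratio of -0.24 and -0.25, and after division by the median ratio the counts were 284 higher and 216 lower against 3 w and 345 and 356 against 16 w. The split between directions therefore depends on the scaling, and calls that the division ends are named below. Calls that it adds are not listed. The injured lining class held 502017 UMIs from 88 cells, the lowest number in the series.

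Ifi27l2a, an interferon-induced gene, was at 1080 CPM in the injured lining, against 74.1 CPM at 3 w and 30.4 CPM at 16 w, 14.6-fold (interval 11.6 to 18.5) and 35.5-fold (27.5 to 46.6) higher. It was also high at 3 d, at 761 CPM, and in the other stromal cells it was at 426 CPM in the injured library, against 30 and 96.4 CPM. Bst2, or tetherin, was at 263 CPM against 119 and 75.6 CPM. These were the only 2 of the 10 interferon genes with enough UMIs. The neutrophil chemokine Cxcl2 was at 207 CPM against 21.3 and 6.91 CPM, from 20 of 88 cells, with 22.1% of its UMIs in 1 cell. The chemokine and inflammation list had 1 of 6 higher (Cxcl2) and 3 lower (Il6, Ccl2 and Cxcl1, the last not after the division) against 3 w, and 2 of 4 higher (Cxcl1 and Cxcl2) and 1 lower (Tnfrsf11b) against 16 w. Ccl2 had no UMI in the injured lining, against 75.8 CPM at 3 w. Timp1, the metalloprotease inhibitor, was at 570 CPM against 260 and 103 CPM, with 22.7% of its UMIs in 1 cell, and podoplanin (Pdpn), a surface glycoprotein raised in inflamed lining, was at 289 CPM against 134 and 34.6 CPM. Both were also higher than at 16 w in other stromal cells, with Timp1 at 171 against 56.2 CPM and Pdpn at 117 against 20.8 CPM. Macrophage markers summed to 89.6 CPM in these lining cells, of which Lyz2 gave 43.8 CPM, against 4.26 and 11.98 CPM, and to 52.0 CPM in the other stromal cells of the same library.

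Several of the largest rises were shared with the rest of the stroma. Pam, the peptide-amidating enzyme, was at 3042 CPM in the injured lining against 512 and 863 CPM, and at 3631 against 732 and 887 CPM in other stromal cells. Macrophages of the injured library held Pam at 3906 CPM. Nme2 was at 416 against 50.2 and 56.7 CPM, and at 218 against 31.0 and 41.2 CPM in other stromal cells. Spry2, an inhibitor of receptor kinase signalling, was at 277 against 37.3 CPM at 16 w, and at 344 against 64.7 CPM in other stromal cells. Col1a1 was above both neighbours at 6396 CPM, and in cells with 3, with 4 and with 5 or 6 rule genes it was at 8999, 5974 and 900 CPM. Against 16 w 4 of 13 collagens were past 2-fold higher (Col1a1, Col1a2, Col3a1 and the rule gene Col22a1, whose level helped to choose the cells) and 1 lower, with a list median of 1.53 against 0.840 over all tested genes. Against 3 w none was higher and 1, Col8a1, was lower. Col8a1 was not past 2-fold after the division in either comparison. Macrophages of the injured library held Col1a1 at 19625.5 CPM, above the lining level, so Col1a1 in the injured lining cannot be told from transcripts of other cells.

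Genes lower in the injured lining included the lining transcription factor Creb5, at 349 CPM against 765 and 818 CPM, though its level in other stromal cells was lower too, at 118 against 228 and 184 CPM. Its ratios of 0.463 and 0.433 became 0.546 and 0.515 after division by the median ratio, which is not past 2-fold. Of 11 transcription factors 6 were past 2-fold lower against 16 w and none higher, and 3 of the 6 (Creb5, Tbx18 and Foxc1) were not past it after the division. Socs3, the feedback inhibitor of cytokine signalling, was at 53.8 CPM against 499 and 490 CPM, and at 145 against 569 and 658 CPM in other stromal cells. Fgl2 was at 185 CPM against 1230 and 723 CPM, and the plasminogen activator Plat at 7.97 CPM against 103 CPM at 16 w. Il6 had no UMI in the injured lining, where 3 counts would be 5.98 CPM, against 92.8 CPM at 3 w, of which 29.4% lay in 1 cell. The 16 w level of 5.99 CPM was at that limit, so no difference from 16 w was detectable at this depth. The immediate early list had 4 of 11 lower and none higher against 16 w, of which Junb and Egr1 were not past 2-fold after the division. Cytl1 and Mgp, at 195 and 1235 CPM, were lower than at 16 w, where cells near the threshold held much of both, while Cytl1 was past 2-fold higher than at 3 w. That rise lay in cells with 3 rule genes, at 497 CPM in the injured library and 126 CPM at 3 w. With 4 rule genes Cytl1 was at 8.49 against 32.0 CPM, and with 5 or 6 at 0 against 6.82 CPM. Of the 8 lining markers, Htra4, Has1 and Creb5 were past 2-fold lower against 3 w, and Htra4 and Creb5 against 16 w. After the division Has1 (0.358) and Htra4 (0.286) were still past 2-fold against 3 w and no marker was against 16 w. Prg4, Cd55 and Hbegf were not past 2-fold in either comparison with the injured library.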

How the data were processed

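The files hold UMI counts per gene and cell, deposited by the authors as 1 filtered matrix for each of 5 libraries of droplet 3′ single-cell RNA-seq, with 27998 genes aligned to mm10. The submitters' processing notes name Cell Ranger 3.1, while the matrix headers give 4.0.0. All values were computed from these raw counts in Python 3.11.15 with numpy 2.4.6, pandas 2.3.3 and scipy 1.17.1, and the code was tested on simulated data. Cells with under 1000 UMIs or over 30% mitochondrial UMIs were left out. No doublet caller was run, and the exclusion of Cdh5 and Tyrobp removed 47, 6, 5, 13 and 8 cells that otherwise met the rule at 3 d, 3 w, 16 w, 78 w and in the injured library. The members, and the 21 gene lists and 12 marker lists, were chosen with earlier results of these data known. Counts were summed per library and class and given as CPM. A gene was tested for size with at least 50 UMIs in the classes compared, and ratios used 10 CPM added to both sides. A gene was named if it was a rule gene, belonged to a list, was among the 20 highest or 10 lowest against other stromal cells, or among the 10 largest in either direction between libraries. Poisson and Clopper-Pearson 95% intervals cover counting error only, and a count of 0 was bounded at 3 counts per library. Gene symbols came from the files, and 99.0% of gene IDs were in GENCODE M21. The alternatives were other numbers of rule genes, stricter cell filters, thinning, other added values and thresholds, and scaling by the median ratio.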

Additional observations from a re-analysis of the deposited data

Results flagged for a closer look

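In 7 cases a gene was past 2-fold in opposite directions in lining and other stromal cells between the same libraries. With 1 library per condition the difference was not tested in any of them, and ratios have 10 CPM added.

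Between 3 w and 16 w, Col2a1 had a ratio of 0.0532 in lining cells and 2.10 in other stromal cells, but all 260 of its UMIs in the 3 w lining were in 1 cell. Against the injured library the same 3 w cell gave Col2a1 a ratio of 0.0777, beside 5.70 in other stromal cells. Pi16, an adventitial fibroblast gene, had 0.259 against 2.40, from 55.3 CPM in 2 lining cells at 3 w and 6.91 CPM at 16 w. Ifi27l2a had 0.481 against 2.66, from 74.1 CPM at 3 w and 30.4 CPM at 16 w in lining cells.

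Between 3 d and 78 w, the matrix glycoprotein Thbs4 had a ratio of 0.334 in lining cells, at 1455 and 479 CPM, and 2.35 in other stromal cells, at 445 and 1060 CPM. Ltbp2, a microfibril protein, had 2.70 in lining cells, at 30.4 and 99.2 CPM, and 0.279 in other stromal cells, at 110 and 23.6 CPM. Lbp had 2.43 in the injured lining against 16 w, at 986 and 400 CPM, and 0.437 in other stromal cells, at 47.7 and 122 CPM.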

How the results depend on the processing

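The share of lining cells depended on the rule and on depth. With at least 2 rule genes it was 5.67%, 1.84%, 3.09%, 5.40% and 2.38% from 3 d to the injured library, and with at least 4 it was 1.28%, 0.419%, 0.759%, 1.72% and 0.591%. Without cells holding a UMI of 7 further lineage genes, 1 of which is Rgs5, it was 1.80%, 0.333%, 1.01%, 1.07% and 0.460%. Thinned to 3000 UMIs it was 1.52%, 0.332%, 0.629% and 1.69% in the 4 normal libraries, and thinned to 1000 UMIs, an alternative chosen after seeing the data, it was 0.360%, 0.172%, 0.207%, 0.733% and 0.289%. Of lining and other stromal cells together it was 3.76% at 3 d and 3.36% at 78 w. Against other stromal cells, the genes higher in each library numbered 73 with at least 2 rule genes, 62 without the 7 lineage genes, 177 with 1 CPM added and 26 at 4-fold. Those lower numbered 12 with at least 2 rule genes, 77 with at least 4, 85 thinned, 130 with 1 CPM, 0 at 4-fold and 73 without the 3 d library, which was also added after seeing the data. Between 3 d and 3 w, 109 genes were higher and 89 lower at 4-fold, and 999 lower with 1 CPM. Between 3 w and 16 w the higher genes were 126 with at least 2 rule genes, 122 thinned, 334 with 1 CPM and 12 at 4-fold, and the lower ones 215 with 1 CPM and 20 at 4-fold. Between 16 w and 78 w the higher genes were 45 with at least 4 rule genes, 140 without the 7 lineage genes, 132 without cells above the 98th percentile of UMIs, 40 thinned, 216 with 1 CPM, 120 as the mean of single-cell CPM and 2 at 4-fold. The lower ones were 33 with at least 2 rule genes, 217 below the 98th percentile, 58 thinned, 315 with 1 CPM and 8 at 4-fold. Between 3 d and 78 w they were 809 higher and 1010 lower with 1 CPM, and 115 and 113 at 4-fold. For the injured library against 3 w, 16 were higher and 41 lower at 4-fold, 284 and 216 after division by the median ratio, and the lower ones were 282 thinned and 732 with at least 10 UMIs. Against 16 w, 112 were higher and 296 lower thinned, 19 and 56 at 4-fold, 345 and 356 after division by the median, and the lower ones were 448 with at least 4 rule genes and 1105 with 1 CPM. The cause was not tested. Named ratios between libraries were also recomputed without the cell holding the most UMIs of the gene, and those of Col2a1 and Wif1 turned round. Col2a1 went from 0.0532 to 1.23 between 3 w and 16 w. Wif1 went from 0.130 to 1.20 in the injured library against 3 w. No paired analysis was possible because each condition has 1 library. The 3 w and injured classes held 64 and 88 cells.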
